A study of Triticum aestivum with 20 samples.

Results

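The very long H3K27me3 domains of wheat leaf are stretches of chromatin that carry H3K27me3 and no active mark over 20000 bp or more without a break. In the chromatin state map of leaf, this state is numbered E5, and neighbouring E5 segments were merged into runs. The domains were chosen by the length of these runs in leaf, and 3547 of 160414 E5 runs (2.21%) reached 20000 bp. They held 112.5 Mb, which is 18.8% of all E5 bases and 0.800% of the 14066 Mb of the genome.

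H3K27me3 is the trimethylation of lysine 27 on histone H3, placed by Polycomb repressive complex 2 and found over silent genes. Vernalization is the long cold period that winter types need before flowering. In Arabidopsis the mark keeps the floral repressor gene FLC silent after the cold. In wheat the study reports a decrease of the mark at the flowering activator VRN1 after vernalization, and no increase at the repressor VRN2. Bread wheat is a hexaploid whose chromosomes belong to 3 sub-genomes, A, B and D, so that each chromosome group holds 3 related (homoeologous) chromosomes.

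Vernalized leaf came from plants of cultivar AK58 that were grown in a greenhouse, kept for a month in a cold chamber and returned to the greenhouse for a day. Leaf came from seedlings of the same cultivar that had not been in the cold, so that plant age differed along with vernalization and their effects cannot be told apart. Chromatin immunoprecipitation followed by sequencing (ChIP-seq) gave 10 libraries in each condition, 2 each of H3K27me3, H3K4me3, H3K36me3, H3K27ac and input. From the peaks of the 4 marks and of chromatin accessibility the authors assigned 1 of 9 states to every 200 bp bin, in 1 segmentation per condition.

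The states were read in 4 classes. E5 is repressed chromatin. E3, E4 and E8 hold repressive and active signals together and are called mixed, E1, E2, E6 and E7 are activated, and E9 carries no signal and is called unmodified. There are no values per library, so that no difference between vernalized leaf and leaf has a replicate check and none was tested. A state called E5 in both maps need not have exactly the same definition in both.

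The domains were mostly not much longer than the limit that defined them. The shortest was 20 kb, the median 26.8 kb with quartiles of 22.6 kb and 35 kb, and the longest 244.6 kb, against a median of 1800 bp for all E5 runs of leaf. There were 1320 domains of at least 30 kb, 316 of at least 50 kb and 29 of at least 100 kb. Just inside the limit, 70 runs measured 20000 bp and 89 measured 20200 bp, and vernalized leaf was E5 over 91.4% and 87.1% of their bases. Just outside it, 84 runs measured 19800 bp and 85 measured 19600 bp, with 80.6% and 84.5%. In the deposited leaf map nearly all domains are cut into neighbouring records of the same state. The median domain was made of 8 such records and the most divided of 75, and 48 domains were 1 record.

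The longest domain of leaf lay near the end of chromosome 7A, at chr7A:730058001-730302600 in IWGSC RefSeq v1.0, and 96.6% of its 244.6 kb was E5 in vernalized leaf. It had 8 internal breaks there, and its longest unbroken piece was 89.6 kb. Both of its borders lay against E9 and moved outward, the left one by 0.4 kb and the right one by 0.2 kb. The next, chr4A:696290001-696468600, measured 178.6 kb, kept 96.1% and had 10 breaks. A pair of domains lay close together on 7B. The one at chr7B:670420401-670582400 measured 162 kb and kept 93.7%, and its left border lay 37 kb further out in vernalized leaf. The one at chr7B:670642801-670787600 measured 144.8 kb and kept 99.0%, with both borders in place. The domain with the longest unbroken remainder among these was chr4A:686865601-687019000, where 150.4 kb of 153.4 kb stayed in 1 piece. In these long domains nearly every base stayed E5, yet most of the runs were divided.

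Of the other domains among the 10 longest, chr4A:647367001-647511600 (144.6 kb) kept 98.1%, chr7B:723022601-723153600 (131 kb) kept 99.4% and chr7D:563354601-563475800 (121.2 kb) kept 98.3%. The lowest share among the 10 was 88.1%, at chr2B:4135601-4266600 (131 kb), where 15200 bp had become E9 and there were 8 breaks. At chr3B:805690601-805812000 (121.4 kb) the share was 91.8% with 2 breaks, and the left border lay 27.4 kb further out. The longest domain with every base E5 in both maps was chr1D:3544001-3653800, at 109.8 kb, singled out after its values were seen.

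The domains were unevenly spread over the 21 chromosomes. Chromosome 3B had the most, 524, and 4A followed with 480, so that this pair held 28.3% of all domains. Chromosome 1B had the fewest, 24. Per 100 Mb of chromosome the number was highest on 4A, at 64.5, and lowest on 1B, at 3.48. Long domains took 38.9% of all E5 bases of 4A and 5.25% of those of 1B. On 4A no domain lay in the first 74.7% of the chromosome, and 463 of the 480 lay in its last 3 twentieths. As background, the end of the long arm of 4A carries a segment that was translocated from 7B. Chromosomes 4B and 4D had 87 domains together. On 3B, 123 domains lay in the first 2 twentieths and 401 in the last 3. All 24 domains of 1B lay in its last part, the first of them at 76.3% of its length. The maps hold no read numbers, so how well reads of AK58 align to the rest of the reference 1B was not examined. The low count of 1B may therefore not be a trait of its chromatin.

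**Figure D1:**
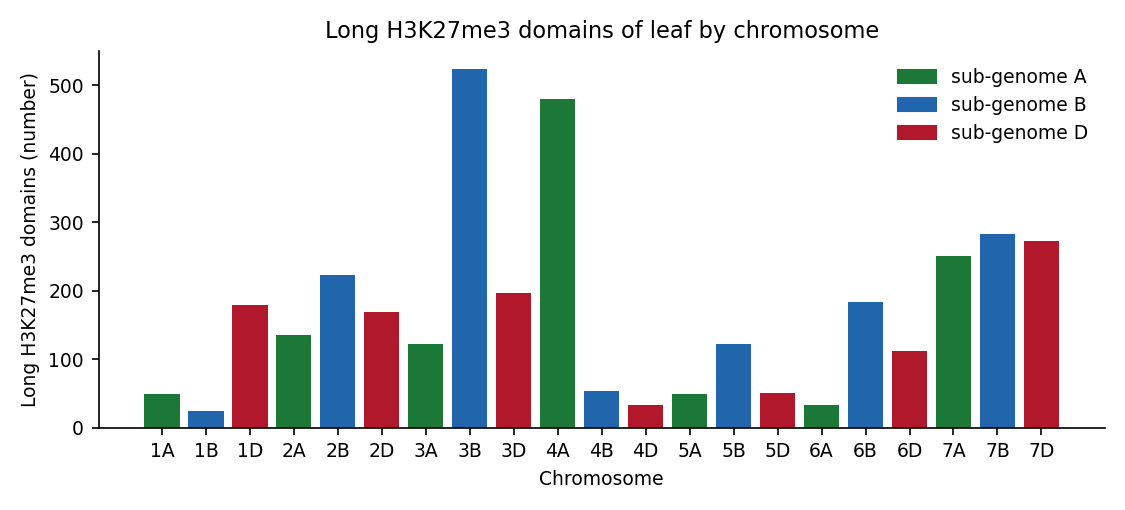
Number of long H3K27me3 domains of leaf (vertical axis) on each of the 21 chromosomes (horizontal axis), coloured by sub-genome. The bars of 3B (524) and 4A (480) stand above the rest, and 1B has the lowest bar (24).

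Sub-genome A had 1120 domains in 36.9 Mb, B 1414 in 45.0 Mb and D 1013 in 30.5 Mb. This is 22.7, 27.3 and 25.6 domains per 100 Mb. The order of the sub-genomes by number of domains depended on single chromosomes. Without 3B and 4A, which takes chromosomes from A and B only, A had 640 domains, B 890 and D 1013. With chromosome groups 3 and 4 left out of all 3 sub-genomes, A had 517, B 836 and D 783. These are counts and not densities. The whole of D covers 3951 Mb, against 4935 Mb for A and 5180 Mb for B, so a lower count on D need not be a lower density. Median length was 27.2 kb on A, 27 kb on B and 26.2 kb on D.

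Along the chromosome the domains were gathered at the ends. With every chromosome cut into 20 equal blocks, the first block held 1303 domains (36.7%) and the last 1003 (28.3%). Chromatin in state E5 as a whole was less concentrated there, since the first block held 36.9% of the bases in long domains against 25.04% of all E5 bases, and the last block 28.6% against 23.2%. Blocks 3 to 15 held 60 domains (1.69%) against 10.4% of all E5 bases, and 4 blocks of these held none. The median distance from a domain to the nearer chromosome end was 27.1 Mb, with quartiles of 12.01 and 45.4 Mb. Within 1 Mb of an end there were 51 domains and within 10 Mb 764. One domain, chr7D:638659001-638686000, ended with the last bin of its chromosome, and it kept 97.0% of its 27 kb. The domain nearest to the middle of a chromosome was chr2B:363750801-363773800, with 73.9% of its 23 kb kept. Both were picked for their position after the values were seen.

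**Figure D2:**
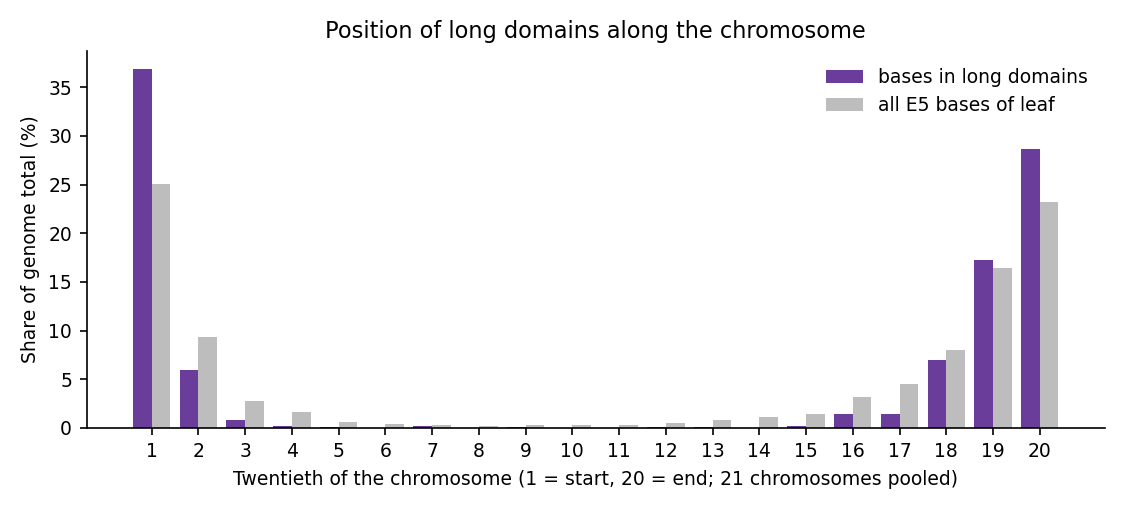
Share of the genome total (vertical axis, percent) in each twentieth of the chromosome, counted from its start (horizontal axis, 21 chromosomes pooled), for bases in long domains (purple) and for all E5 bases of leaf (grey). Long domains exceed all E5 bases in the first and the last block, with 36.9% and 28.6%, and are nearly absent from blocks 3 to 15.

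Many domains had another long domain close by. The median gap between neighbours on a chromosome was 96.4 kb, with quartiles of 22.8 and 432 kb. A domain within 50 kb of another was counted as clustered, and 1966 domains (55.4%) fell into 631 clusters. Of the clusters, 338 were pairs, 146 held 3 domains and 147 held 4 or more. There were 12 clusters of 10 or more domains, 5 on 4A, 2 each on 1D, 2B and 3B and 1 on 7B, and they held 166 domains. Some neighbours were separated by very little, since 30 gaps were of 200 bp and 113 of at most 600 bp.

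The cluster with the most domains was at chr4A:694565801-695869400, with 25 domains over 1304 kb. Domains took 76.7% of this span, and E5 took 86.6% of it in vernalized leaf and 85.5% in leaf. The domains of the cluster kept 96.6% of their bases and none kept under 50%. Over the 22.9 Mb of gaps inside all clusters, E5 took 59.2% in vernalized leaf and 50.3% in leaf, mixed chromatin 3.11% and 6.45%, and unmodified chromatin 36.8% and 42.3%. Activated chromatin was rare in the gaps, at 0.947% in vernalized leaf and 1.01% in leaf. Clustered domains kept 92.5% of their bases and 26 of 1966 (1.32%) kept under 50%, whereas the 1581 domains outside clusters kept 86.9% and 64 (4.05%) kept under 50%. Clustered domains were also longer, with a median of 28.8 kb against 25.2 kb, and their length was not held equal in this comparison.

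The next question was what lay at the edges of the domains in leaf. Of 7094 borders, 3686 (52.0%) touched E9 and 2720 (38.3%) touched E4, a mixed state. E8, also mixed, was next with 599 (8.44%). Activated states were seldom neighbours, with 38 borders (0.536%), against 1.42% of the borders of E5 runs of 2000 bp or more and under 20000 bp. Mixed chromatin touched 47.5% of the borders of long domains and 44.5% of those of the shorter runs. Counted by domain, 1048 (29.5%) lay between E9 on both sides, 892 (25.1%) between mixed chromatin on both sides, and 1568 (44.2%) had 1 of each.

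The mixed chromatin beside the domains was short, and E5 usually went on behind it. The E4 segment at a border had a median length of 600 bp and was followed by another E5 run in 95.7% of cases. The E8 segment had a median of 400 bp and was followed by E5 in 76.6%. The E9 segment had a median of 6600 bp, and E5 followed in 95.5%. A domain as defined here is therefore often a piece of a longer H3K27me3 region that short mixed segments divide. When mixed bases were counted together with E5, 6758 runs reached 20000 bp.

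Most bases of the domains were E5 in vernalized leaf as well. Vernalized leaf was E5 over 101.6 Mb of the 112.5 Mb, or 90.3%, compared with 68.6% of the bases of all E5 runs. Of the 10.9 Mb that were no longer E5, 86.9% were E9, 12.7% mixed and 0.393% activated. The activated bases amounted to 43 kb, of which 24 kb were E2 (mainly H3K36me3), 13.8 kb E7 and 5 kb E6. Only 56 domains (1.58%) had any activated base in vernalized leaf, while 1712 (48.3%) had some mixed base.

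Per domain, the median share of kept bases was 94.7%, with quartiles of 85.0% and 99.0%, and 10% of the domains kept less than 70.4%. Every base was kept in 681 domains (19.2%), against 23.8% of all leaf E5 runs. Most of these lay in a run that went further, 539 past both borders and 129 past 1 border, and 13 had exactly the same ends in both maps. Under 50% of the bases were kept in 90 domains (2.54%), against 49.0% of all E5 runs. In only 1 domain was no base kept, against 33.0% of all E5 runs. Long domains were thus less often kept under 50% and also less often kept over every base than E5 runs as a whole. These backgrounds depend on run length. With a median of 1800 bp, many E5 runs hold few bins, and such a run is more easily kept or lost as a whole. In E5 runs of 10 to under 20 kb, 23.4% kept every base and 12.1% kept under 50%.

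The domains that kept least had mostly become unmodified chromatin. The only domain with nothing kept was chr1D:384945401-384968400, 23 kb long, of which 22800 bp were E9 and 200 bp E2 in vernalized leaf. At chr5B:708562401-708585600 1.72% of 23.2 kb was kept, at chr5D:431314601-431336800 1.80% of 22.2 kb, at chr1D:299750601-299771600 2.86% of 21 kb and at chr7B:636306801-636332800 7.69% of 26 kb. The first 4 of these 5 lay between E9 on both sides in leaf, and the last between E8 and E9. Over the 90 domains that kept under 50%, 97.0% of the lost bases were E9. Their median length was 23.4 kb and the longest measured 56.2 kb. They held 13.5% of all lost bases, whereas the 384 domains that kept 50% to under 75% held 32.3%, the 785 that kept 75% to under 90% held 34.1% and the 2288 that kept 90% or more held 20.1%. The domain with most activated bases was chr4B:660670801-660691800, which kept 26.7% of 21 kb and had 6 breaks. Its break at chr4B:660675801-660681200 held 2000 bp of E2, 1400 bp of E6, 200 bp of E3 and 1800 bp of E9.

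Longer domains kept a larger share of their bases. Domains of 20 to under 25 kb (1411) kept 87.3% of their bases, those of 25 to under 30 kb 88.3%, those of 30 to under 50 kb 91.5%, those of 50 to under 100 kb 94.1% and the 29 of 100 kb or more 96.8%. E5 runs of 10 to under 20 kb kept 81.2% and those of 2 to under 5 kb 53.4%, so that the share was graded with length below the limit as well. The share of domains that kept under 50% was 3.69% in the shortest of the 5 length classes and 0% in the longest. Domains with every base kept became less frequent with length, at 21.3% and 6.90% in these same classes.

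**Figure D3:**
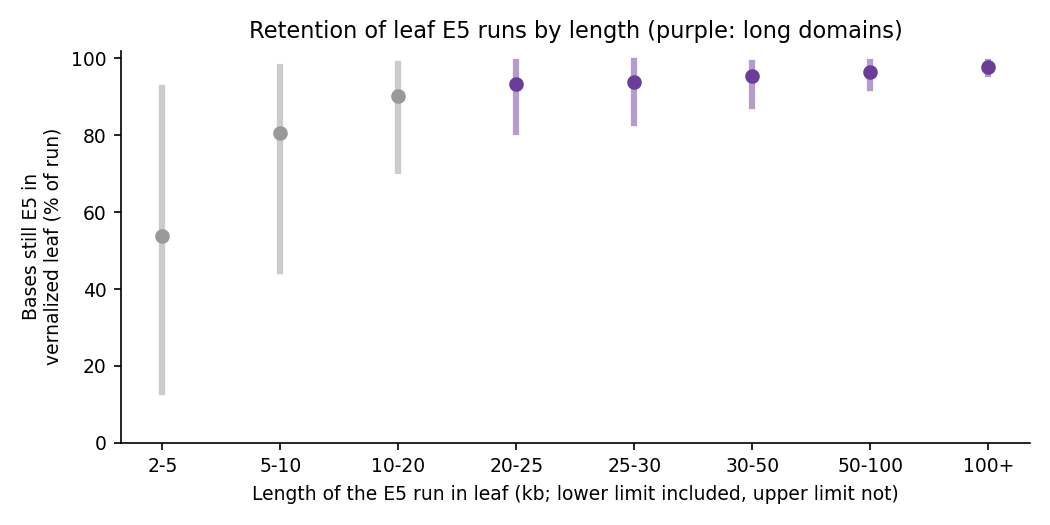
Share of the bases of each leaf E5 run that were E5 in vernalized leaf (vertical axis, percent of the run) by length of the run in leaf (horizontal axis, kb). Points are medians and bars run between the quartiles over runs, purple for long domains and grey for shorter runs. The median is 93.4% at 20 to under 25 kb and 97.8% at 100 kb and above, against 53.8% at 2 to under 5 kb.

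To compare long domains with shorter runs, the kept share was computed on each chromosome. It averaged 89.9% ± 3.07 for long domains and 66.8% ± 4.97 for runs of 2000 bp or more and under 20000 bp (SD, n = 21 chromosomes). The difference was 23.2 ± 3.96 percentage points, between 14.7 and 30.4, and positive on 21 of 21 chromosomes. In an exact permutation test that flips the signs of the chromosome differences (two-sided), p was 9.54e-07, the smallest value this test can give. Chromosomes are units within 1 map per condition and are not replicates of plants. The direction was also positive with runs of 10000 bp or more and under 20000 bp as the shorter class, where the difference was 8.88 points. A run has more of its bases near a border when it is short. With 600 bp at either end of every run left out, the difference was 19.8 points. This trim does not remove nearness to a border, since E5 in vernalized leaf went on rising further inside long domains. It was found at 80.1% of borders at -0.7 kb, 84.1% at -1.3 kb and 89.9% at -4.9 kb (below 0 is inside the domain). How much of the difference comes with distance to a border was not tested.

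Domains of sub-genome A were kept more than those of B and D. The highest share was on 1A (94.9%) and the lowest on 1B (82.3%). By chromosome, A kept 92.4% ± 1.43 of its domain bases, B 87.2% ± 2.41 and D 90.1% ± 2.79 (SD, n = 7 chromosomes each). Over the 7 chromosome groups A exceeded B by 5.17 ± 3.62 points and D by 2.23 ± 2.31 points, each in 7 of 7 groups. For each, p was 0.0156 in the same exact permutation test and 0.0234 after Benjamini-Hochberg adjustment over the 3 comparisons. With 7 groups, 0.0156 is the smallest p this test can give. The pairing is by chromosome group, and all domains of 4A lie in its last part, whose end carries a segment from 7B. Group 4 may therefore not compare related regions, which was not tested. Without group 4, A exceeded B by 5.10 points and D by 1.91 points, with adjusted p = 0.0469 for each (exact). A and D were nearly equal in group 1 (94.87% and 94.76%) and group 7 (90.29% and 90.22%). B minus D was -2.94 ± 4.92 points, with B higher in 1 of 7 groups and adjusted p = 0.109 (exact). This call depended on group 5, since without it the difference was -3.98 points with adjusted p = 0.0312 (exact).

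The order of the sub-genomes was also present in the shorter runs, where A exceeded B by 7.09 ± 5.13 points (6 of 7 groups) and D by 4.79 ± 4.68 points (7 of 7 groups). In domains under 30000 bp, A minus B was 5.97 points and A minus D 2.998 points. When only domains in the first 2 or last 2 of the 20 blocks were used, A minus B was 4.94 points with adjusted p = 0.0469 (exact), whereas A minus D was 2.01 points with adjusted p = 0.109 (exact) and was no longer past the threshold of 0.05. The number of domains behind a chromosome value ranged between 24 and 524. Breaks were present in 61.6% of the domains of A, 69.5% of those of B and 61.1% of those of D.

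**Figure D4:**
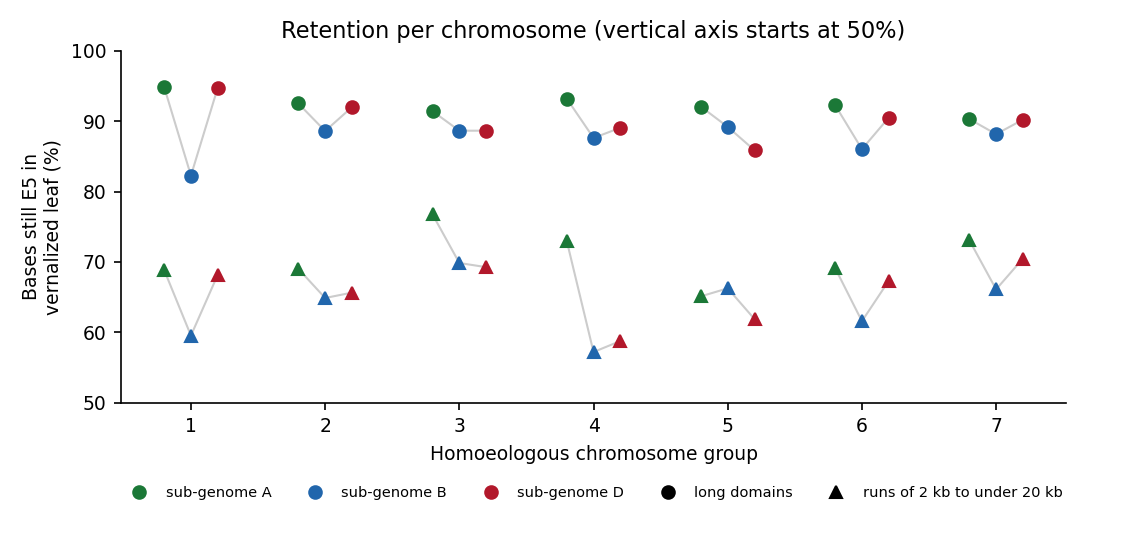
Share of bases that were E5 in vernalized leaf (vertical axis, percent, starting at 50%) for each chromosome, by homoeologous group (horizontal axis). Circles are long domains and triangles shorter E5 runs, coloured by sub-genome, and grey lines join the chromosomes of a group. On every chromosome the circle lies above the triangle, and the circle of A is the highest in 7 of 7 groups.

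Retention also varied along the chromosome. Domains in the first block kept 92.2% of their bases, those in the last block 89.6% and the 60 domains in blocks 3 to 15 84.1%. Under 50% was kept in 13 of 1303 domains of the first block (0.998%), 22 of 1003 of the last (2.19%), 16 of 339 in blocks 16 to 18 (4.72%) and 5 of the 60 in blocks 3 to 15 (8.33%). These shares are given as a description, since neighbouring domains are not independent.

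Most domains were divided in vernalized leaf although they kept most of their bases. An internal break was defined as a stretch of other states between E5 bins of the same domain. At least 1 was found in 2292 of the 3546 domains that kept any base (64.6%), with 4608 breaks in all. There were 1085 domains with 1 break, 637 with 2, 300 with 3 and 270 with 4 or more, against 1254 with none. In 1595 domains (45.0%) no piece of 20000 bp was left, and the longest unbroken piece had a median of 73.7% of the domain. The rule admits only runs that are unbroken in leaf, so a break can appear only in vernalized leaf. Long E5 runs of vernalized leaf read in leaf were divided at least as often. Of these, 69.5% had a break and 46.9% had no piece of 20000 bp left. The breaks therefore do not show that domains were divided more after vernalization.

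The breaks were short and came in 2 kinds. Their median length was 800 bp with quartiles of 400 and 2200 bp, and 569 of them (12.3%) were of 200 bp, the smallest step of the map. There were 2154 breaks made of mixed bases alone (46.7%), with a median of 400 bp, and 2178 made of E9 alone (47.3%), with a median of 2000 bp. Another 262 held both. Activated bases were present in 14 breaks (0.304%), and no break consisted of activated bases alone. The longest mixed break was chr2B:76080801-76085400, 4600 bp of E4 in a domain of 25 kb that kept 81.6%. The longest break of E9 was chr4A:688215601-688233000, which covered 17400 bp of a domain of 26.2 kb and left 31.3% of it as E5. There were 270 breaks of at least 5 kb and 23 of at least 10 kb.

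Breaks were spread over the whole domain. In 5 equal parts of the domain, counted from its left end, 19.6%, 20.9%, 19.6%, 20.3% and 19.6% of the breaks had their centre there. Longer domains more often had a break, 86.2% at 100 kb or more against 57.2% at 20 to under 25 kb. Per 100 kb of domain the number was lower in the longest class, 2.16 against 4.54. The domain with the most breaks was chr3B:826845601-826915200, with 15 breaks in 69.6 kb and 51.7% of its bases kept, most of the rest being E9. At chr7B:613179601-613243200, with 13 breaks and 78.0% of 63.6 kb kept, E4 took 6600 bp and E9 5600 bp. At chr1D:490529401-490561800, 11 breaks divided 32.4 kb, and 52.5% was kept. The breaks held 7.22 Mb, 66.0% of all lost bases, and the other 3.69 Mb (33.8%) lay outside the outermost E5 bin of a domain, with the remainder in the domain that kept none.

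The outermost E5 bin of a domain more often belonged to a run that went on outside than to one that ended inside. Of the 7091 borders that could be followed, 4272 (60.2%) lay further out in vernalized leaf, 2183 (30.8%) further in and 636 (8.97%) at the same bin. The left and the right borders were alike, with 60.0% and 60.5% outward. The median outward move was 3200 bp and the median inward move 800 bp. Moves of more than 10 kb were almost all outward, 1065 against 28 inward. Both borders moved outward in 1356 domains (38.2%), 1 in each direction in 1200 (33.8%) and both inward in 394 (11.1%), and 41 kept both. A border is limited inward by the domain itself but not outward, and an outward move can include an E5 run that was already there in leaf. The direction depended on which piece stood for the domain, since with the longest unbroken piece in place of the outermost E5 bins 38.5% of the borders lay further out and 56.2% further in. The excess was also present whichever map defined the runs, since the long E5 runs of vernalized leaf read in leaf had 56.1% of their borders further out and 33.4% further in.

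The direction of the move differed with the state that the border touched in leaf. Beside E4, 82.1% of 2720 borders moved outward and 9.93% inward. Beside E8 these shares were 65.6% and 23.5% of 599 borders. Beside E9 they were nearly equal, at 44.1% outward and 46.5% inward of 3684 borders. The 38 borders beside activated chromatin were the ones that most often moved inward, 27 of them (71.1%), with 6 outward. The flanking bases themselves stood in the same order for E4, E8 and E9. Of the 2.07 Mb of E4 beside domains, 74.3% were E5 and 24.2% mixed in vernalized leaf. Of the E8 beside domains 64.3% were E5. Of the bases of E9 within 1000 bp of a domain 37.0% were E5 and 62.5% unmodified.

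Close to the border the 2 maps differed most. In the first 1 kb outside, E5 took 54.9% in vernalized leaf and 15.7% in leaf, mixed chromatin 9.20% and 31.3%, and unmodified chromatin 34.9% and 51.9%. In leaf the bin beside a domain cannot be E5, because the rule ends the run there. Further out the maps were similar, with E5 at 53.2% in vernalized leaf and 51.9% in leaf at 4 to 5 kb, and at 54.5% and 56.2% at 9 to 10 kb. In the last 1 kb inside the border 76.8% was E5 in vernalized leaf and 20.4% unmodified, where leaf is E5 by definition.

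**Figure D5:**
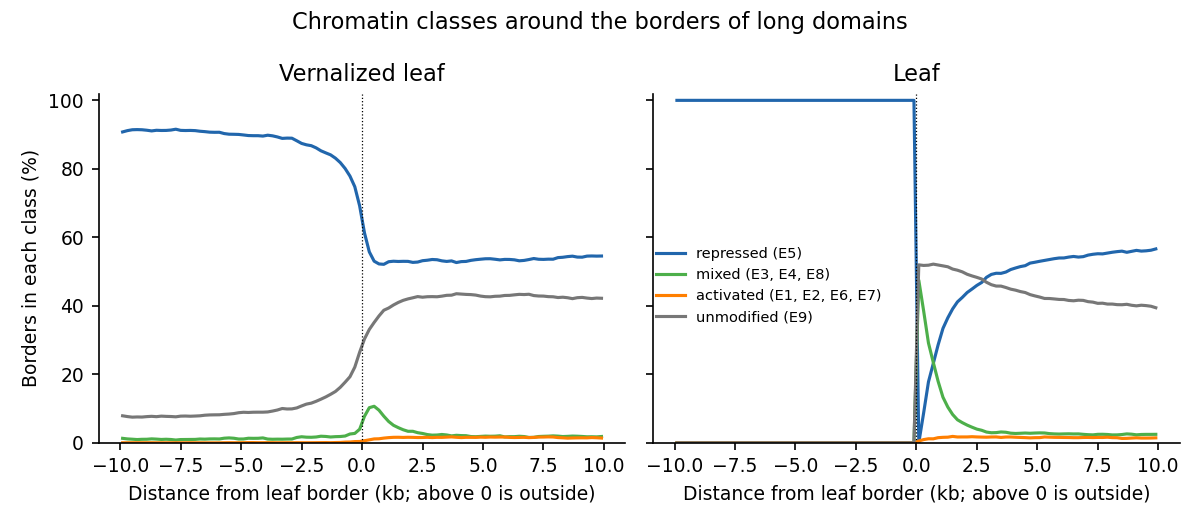
Share of borders in each chromatin class (vertical axis, percent) by distance from the border of a long domain in leaf (horizontal axis, kb, above 0 outside the domain), in vernalized leaf (left) and leaf (right), over 7094 borders with left and right borders pooled. Leaf is 100% E5 inside by the rule, and the peak of mixed chromatin just outside in leaf is lower in vernalized leaf.

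Outward moves largely ran into chromatin that was already E5. The borders that moved outward covered 32.0 Mb outside their own domains, of which 80.4% was E5 in leaf, 13.0% (4.16 Mb) unmodified and 6.51% (2.08 Mb) mixed. The E5 part can include other long domains that an outward run crossed. The outward borders reached another E5 run of leaf in 2514 cases (58.8%). The longest outward move was at chr3B:31448601-31500800, 52.2 kb long with 99.2% kept, whose right border lay 143.4 kb further out. The longest inward move was at chr4B:627216401-627250600, where the right border lay 26.6 kb further in and 8.77% of 34.2 kb was kept.

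The number of very long runs was nearly the same in both maps. Vernalized leaf had 3677 E5 runs of 20000 bp or more, in 117.2 Mb, against 3547 in 112.5 Mb in leaf, although E5 as a whole covered 494.7 Mb in vernalized leaf and 597.0 Mb in leaf. The long runs took 23.7% of all E5 bases in vernalized leaf and 18.8% in leaf. The median length was 27.2 kb in vernalized leaf and 26.8 kb in leaf, and the longest run 160.2 kb and 244.6 kb. Of the leaf domains, 2356 (66.4%) were overlapped by a vernalized run of that length, and 2357 of the 3677 vernalized runs (64.1%) overlapped a leaf domain. There were 246 vernalized runs that joined 2 or more leaf domains, 495 domains (14.0%) in all. The one that joined the most, 4 domains, was also the longest, at chr3B:31484001-31644200.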

How the data were processed

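ChIP-seq reads of 20 libraries were processed by the authors. Per the submitters' processing notes, fastp 0.21.0 and Bowtie2 2.3.5.1 were used, and per the study's methods reads were aligned to IWGSC RefSeq v1.0 and peaks were passed to ChromHMM, a hidden Markov model of chromatin states. The deposited files give 1 of the labels E1 to E9 to each segment, in steps of 200 bp, with no score. How replicates were combined is not stated, and whether 1 model served both conditions was not established. What each label stands for follows the row order of the study's display of states, which the files cannot verify. The segmentations hold no read numbers, so no precision from depth was computed.

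Records (4 fields each) were checked to tile the 21 chromosomes, and 0 columns mapped to no condition. Neighbouring E5 segments of leaf were merged, and runs of at least 20000 bp were kept. Every bin of a domain was then read in vernalized leaf. A border move is the distance between the leaf border and the outer end of the vernalized E5 run that holds the outermost E5 bin of the domain. Kept shares were compared over chromosomes with an exact permutation test (two-sided, by sign flips), with Benjamini-Hochberg adjustment over the 3 sub-genome comparisons. Number, length, position, flanks and clusters follow from the rule or were not tested.

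The domains and lists were chosen with earlier results of these data known. The regions named are the 10 longest domains, the 5 with the lowest kept share, the 3 with most breaks, the longest break of each class (or the one with most activated bases), the longest inward and outward moves, the domain with most activated bases, the largest cluster, and the highest and lowest chromosomes. Other named regions are said to be picked later. Alternatives covered the length limit, the merging of segments, the definition of kept bases, breaks, borders and clusters, and leaving out each chromosome group. Functions were tested on simulated data. The gene annotation of this build was not used here, so no genes are named. Python 3.11.15, numpy 2.4.6, scipy 1.17.1 and matplotlib 3.10.9 were used.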

Additional observations from a re-analysis of the deposited data

Results flagged for a closer look

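The comparison of sub-genomes is given again because the share of leaf domain bases that were E5 in vernalized leaf differed between sub-genomes. The test compared these shares and was not a test of vernalized leaf against leaf. In long domains the kept share of A exceeded that of B by 5.17 points and that of D by 2.23 points, each in 7 of 7 chromosome groups (exact permutation test by sign flips, two-sided, adjusted p = 0.0234 for each). The p before adjustment was the smallest this test can give, and A and D were nearly equal in groups 1 and 7. With domains in the first 2 or last 2 of the 20 blocks alone, A minus D was 2.01 points in 6 of 7 groups and lost its call (adjusted p = 0.109, exact). Without group 4, in which the domains of 4A may have no counterpart on 4B and 4D, the differences were 5.10 and 1.91 points. The test treats chromosomes as units within 1 map per condition.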

How the results depend on the processing

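Of 69 alternatives, 47 stayed within the limits set for the same result, 19 moved a value, 1 lost a call, 1 gained a call and 1 turned a direction. The limits were not alike. A number of domains could change by a fixed factor, whereas a share had to stay in an interval that treats neighbouring bins or domains as independent. The tally is therefore no measure of how robust the results are. The number of domains was 6379 at 15000 bp or more, 1320 at 30000 bp or more, 6758 with mixed bases counted as E5 and 315 with the deposited records left unmerged. With gaps of up to 600 bp bridged it was 4839, which was within the limit. The kept share was 88.4% at 15000 bp and 92.6% at 30000 bp, 91.5% with mixed bases counted as kept, 90.9% with the outer 600 bp left out, 94.7% as the median over domains and 89.1% with gaps of up to 600 bp bridged. The share of domains with a break was 60.7% for breaks of at least 400 bp, 49.8% for at least 600 bp and 37.5% without mixed breaks. Borders moved inward in 24.4% by more than 200 bp and in 13.5% by more than 1000 bp. With the longest unbroken piece as the domain 56.2% lay further in and 38.5% further out, which turned the direction. Under 25% was kept in 18 domains and under 75% in 474. Clustered domains were 27.5% at 10 kb and 79.0% at 200 kb.

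Leaving out 1 chromosome group at a time gave 22.5 to 24.1 points for long domains minus shorter runs, 3.93 to 5.68 for A minus B, 1.57 to 2.59 for A minus D and -3.98 to -1.34 for B minus D. The last passed the threshold only without group 5 (adjusted p between 0.0312 and 0.219, exact). A pair of checks chosen after seeing the data, domains under 30000 bp and domains in the first 2 or last 2 of the 20 blocks, kept the direction of the 3 sub-genome differences, and A minus D lost its call in the outer blocks (2.01 points). No paired analysis was possible because the values are 1 map per condition, without a value for any library. Read depth, which limits the calling of a peak, was not used here, and its part in the differences was not tested.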

Other observations

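Read in the other direction, the 3677 E5 runs of 20000 bp or more in vernalized leaf kept a similar share of their bases and differed from the leaf domains in other measures. Of their bases 92.3% were E5 in leaf, against 90.3% of the bases of leaf domains that were E5 in vernalized leaf. Under 50% was shared in 25 of them (0.680%), against 90 leaf domains (2.54%). In leaf, 69.5% of them had a break, with 4.39 breaks per 100 kb, against 64.6% and 4.10 for leaf domains in vernalized leaf. Breaks of mixed chromatin alone made up 82.5% of the breaks in vernalized runs read in leaf, against 46.7% in leaf domains read in vernalized leaf, and breaks of E9 alone 17.3% against 47.3%. The bases that were not E5 in the other map were mixed in 34.8% for vernalized runs and in 12.7% for leaf domains.

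The 1320 vernalized runs that overlapped no long domain of leaf were not formed on chromatin free of the mark. Of their bases 86.3% were E5 in leaf, 8.72% unmodified and 4.97% mixed. All of them overlapped an E5 run of leaf, with a median of 3 such runs and a median of 14.4 kb for the longest of them, and 94.3% overlapped at least 2.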
